A study of Rattus norvegicus with 24 samples.

Results

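Cholesterol delivery for steroid synthesis was followed through 5 genes, Star, Scarb1, Fdx1, Tspo and Fdxr, which were taken by name. They made up 5 of the 21425 genes measured by bulk RNA sequencing in a neonatal rat testis culture, and each was present in the data and passed the filter on low values in both experiments. The study followed wild-type primary cells from postnatal day 5 Sprague Dawley testes, taken as a complete mixture with no cell type enriched or depleted, and embedded in Matrigel, a basement membrane gel, in serum-free medium. The baseline experiment sampled cells of 1 litter as technical triplicates on days 3, 5 and 7 of culture, beside triplicate libraries of the primary tissue isolate. In the induction experiment, 10-day cultures of 3 litters were sampled untreated (0 h) and 2, 12 and 48 h after 50 mIU/mL luteinizing hormone (LH) and 20 mIU/mL follicle stimulating hormone (FSH) were added in fresh medium, with 3 cultures pooled into each library. All 8 groups thus had 3 libraries. Untreated libraries at 2, 12 or 48 h were not analysed here, so hormones, fresh medium and time in culture cannot be told apart. Nor were samples taken at 6 h.

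Leydig cells, the androgen-producing cells between the seminiferous tubules, make their steroids from cholesterol. Scarb1 is the cell surface receptor that takes cholesteryl esters from high density lipoprotein, Star carries cholesterol across to the inner mitochondrial membrane in the acutely regulated step, and Tspo is a cholesterol-binding protein of the outer mitochondrial membrane. Inside the mitochondrion Fdxr, a flavoprotein reductase, takes electrons from NADPH and hands them to the iron-sulfur protein Fdx1, which passes them to Cyp11a1, the P450 enzyme that cuts the cholesterol side chain to give pregnenolone. In Leydig cells LH acts through its receptor and cyclic AMP to switch on Star within hours.

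In the RefSeq annotation Star lies on chromosome 16, Scarb1 on 12, Fdx1 on 8, Tspo on 7 and Fdxr on 10. The span of Scarb1 overlaps that of a long noncoding gene, LOC134481291, in that annotation. The libraries did not mark strand, so reads from a stretch that both genes share cannot be told apart. Whether their exons overlap was not checked. Promoter windows, 250 bases before to 50 after the start site in the RefSeq tables of build GRCr8, matched 2 of the 5 genes, Fdx1 and Fdxr. They are the electron transfer pair, and they are shown because they alone among the 5 had a window. A link between these windows and the levels was not tested. The Fdx1 window is chr8:61183596-61183895 and the Fdxr window is chr10:101015486-101015785, both printed 5′ to 3′ along the minus strand. Capitals mark the only match found to 4 motifs searched on both strands.
Fdx1 promoter: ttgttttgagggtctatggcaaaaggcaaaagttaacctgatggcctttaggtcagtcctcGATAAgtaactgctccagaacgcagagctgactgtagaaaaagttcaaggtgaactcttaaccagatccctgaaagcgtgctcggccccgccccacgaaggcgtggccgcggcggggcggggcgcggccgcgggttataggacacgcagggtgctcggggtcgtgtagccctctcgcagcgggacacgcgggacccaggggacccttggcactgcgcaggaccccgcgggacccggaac
Fdxr promoter: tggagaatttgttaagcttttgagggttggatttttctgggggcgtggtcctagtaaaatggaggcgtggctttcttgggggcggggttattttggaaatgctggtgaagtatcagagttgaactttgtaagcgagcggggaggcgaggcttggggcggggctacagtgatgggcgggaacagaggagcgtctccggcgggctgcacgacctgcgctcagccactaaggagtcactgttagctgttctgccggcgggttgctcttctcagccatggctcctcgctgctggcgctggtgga
The capitals are GATAA, a core read by GATA factors, beginning 189 bases before the Fdx1 start site, and 26.1% of the 27457 windows in the table hold it. AAGGTCA, read by the steroidogenic factor Nr5a1 and related receptors, is in 4.37% of all windows. The cyclic AMP response element TGACGTCA is in 1.91% and its shorter core TGACG, which also lies within the full element, in 21.96%. None of the last 3 motifs is written exactly in either of the printed windows. Only exact matches were searched, so a variant of a motif would not be marked.

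Levels are in reads scaled to the library total (CPM), given per library in the order of replicate or litter 1, 2 and 3, and fold changes are log2 differences of CPM + 1 ± SE, tested with limma over all genes and called at an adjusted p under 0.05. Library totals were 17259939 to 30400440 reads in the baseline and 15793940 to 28298743 reads in the induction experiment, from the CPM value of 1 read, so that 1 read was worth at most 0.0579 and 0.0633 CPM. All 5 genes therefore stood well above single reads. CPM is not scaled by transcript length, so levels of different genes are not set against each other. The baseline replicates are technical, and their p-values measure the spread between libraries of 1 litter. In bulk samples fewer cells of a type and less RNA per cell cannot be told apart. The experiments were not compared with each other, since 218 genes, none of the 5 among them, averaged more than 20 CPM in 1 of them yet less than 1 CPM in the other. The sums of Sertoli, peritubular myoid and Leydig markers were above 250 CPM in every library, and summed germ cell markers lay at 237 to 258 CPM in tissue and at 38.9 to 75.3 CPM over all culture libraries. The germ cell sum includes Kit, which lay at 28.7 to 35.2 CPM in tissue and 15.05 to 42.8 CPM over all culture libraries. The Leydig sum includes Nr5a1, which lay at 121.4 to 243.5 CPM over the 24 libraries. Among Leydig markers, Insl3 was at 0 in all 12 induction libraries and at 27.9 to 49.6 CPM in the 9 baseline culture libraries. It is one of those 218 genes, so its counting is uncertain and its 0 is not read as a level. The LH receptor Lhcgr lay between 0.0529 and 8.26 CPM over the 24 libraries.

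Scarb1, the uptake receptor, was far lower in culture than in the tissue isolate. It stood at 209, 221 and 219 CPM in the tissue libraries. At day 3 it had 75.6, 86.1 and 67.6 CPM. All culture libraries lay below all tissue libraries, with the lowest at day 5 (61.9, 63.9 and 40.9 CPM) and day 7 (60.4, 65.8 and 47.6 CPM). Scarb1 fell by -1.50 ± 0.16 at day 3 (limma adjusted p = 5.03e-06), -1.97 ± 0.16 at day 5 (3.75e-07) and -1.90 ± 0.16 at day 7 (4.59e-07). These 3 comparisons share the tissue libraries and are not independent.

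Star, the mitochondrial carrier, went the other way. Its tissue libraries held 7.45, 7.84 and 7.50 CPM, and its day 3 libraries 16.3, 8.62 and 12.5 CPM. At day 5 it had 16.9, 19.0 and 18.6 CPM and at day 7 it had 19.6, 15.5 and 16.8 CPM. Every culture library was above every tissue library, though day 3 replicate 2 lay close to tissue. Star rose by 0.61 ± 0.18 at day 3 (limma adjusted p = 0.0127), 1.15 ± 0.18 at day 5 (0.000123) and 1.08 ± 0.18 at day 7 (0.000195). The day 3 call was lost without day 3 replicate 1 (0.41, adjusted p = 0.0726).

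Tspo, the outer membrane protein, was higher at day 3 and more scattered later. Its tissue libraries held 18.3, 13.4 and 20.5 CPM and its day 3 libraries 37.2, 28.8 and 41.3 CPM, with no overlap. At day 5 it had 22.4, 31.5 and 10.1 CPM and at day 7 it had 32.4, 23.2 and 18.4 CPM, ranges that took in tissue values. Tspo rose by 1.00 ± 0.32 at day 3 (limma adjusted p = 0.0173), a call lost without tissue replicate 2 (0.0740) or day 3 replicate 3 (0.0541). At day 5 the difference was 0.17 (95% interval -0.53 to 0.86, adjusted p = 0.678), and without day 5 replicate 3 it was 0.60 with adjusted p = 0.0482. At day 7 it was 0.46 (-0.23 to 1.16, adjusted p = 0.231).

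Fdx1, the electron carrier, was lower in culture, while its reductase Fdxr did not pass the test. Fdx1 stood at 30.8, 32.1 and 28.3 CPM in tissue and at 20.1, 16.5 and 19.6 CPM at day 3. It reached its lowest values at day 5, with 11.9, 14.3 and 8.94 CPM, and had 15.7, 16.7 and 14.8 CPM at day 7. No culture library reached a tissue library. Fdx1 fell by -0.67 ± 0.16 at day 3 (limma adjusted p = 0.00236), -1.32 ± 0.16 at day 5 (8.97e-06) and -0.91 ± 0.16 at day 7 (0.00021).

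Fdxr had 152, 130 and 141 CPM in tissue and 117, 114 and 164 CPM at day 3. At day 5 it had 103, 124 and 69.6 CPM and at day 7 it had 132, 104 and 70.9 CPM. Its day 5 libraries lay below tissue without overlap, while those of days 3 and 7 overlapped it. Fdxr did not pass at day 3 (-0.12, 95% interval -0.61 to 0.38, limma adjusted p = 0.679), day 5 (-0.55, -1.04 to -0.05, adjusted p = 0.0541) or day 7 (-0.50, -0.998 to -0.01, adjusted p = 0.0739). The day 5 difference passed without day 3 replicate 3, day 5 replicate 2, day 7 replicate 1 or day 7 replicate 3 (adjusted p 0.0176 to 0.0423), and the day 7 difference without day 5 replicate 3 or day 7 replicate 1 (0.0216 to 0.0376).

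**Figure D1:**
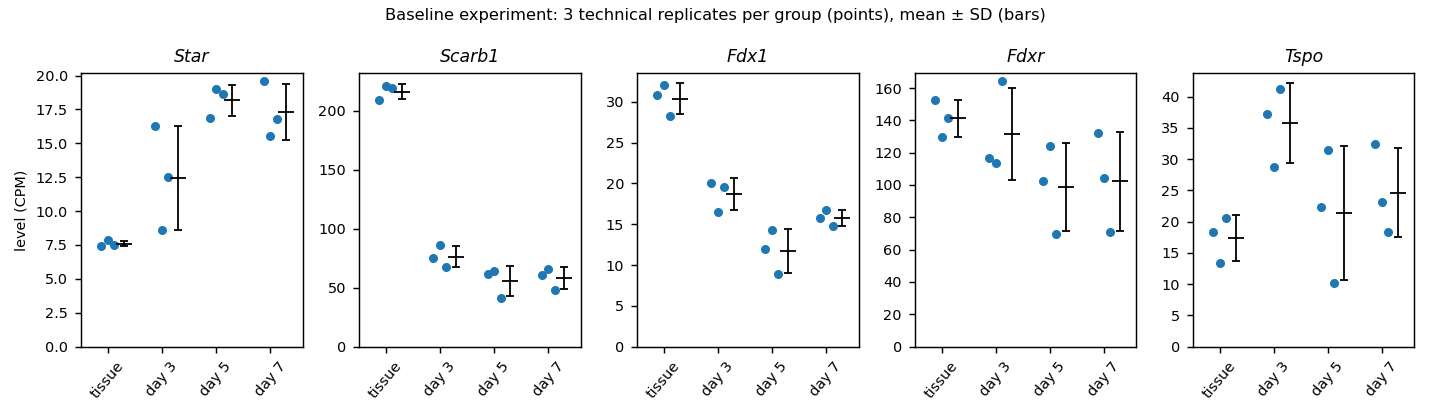
Levels in CPM (vertical axis, from 0, a separate scale for each gene) of the 5 genes in the tissue isolate and on days 3, 5 and 7 of culture. Points are the 3 technical replicates of a group and bars the mean ± SD; Scarb1 and Fdx1 lie lower and Star higher in every culture library than in every tissue library.

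Counts of calls are read against the share of all genes called. At day 3, 2 of the 5 genes rose and 2 fell, where 55.9% of 13055 genes were called in either direction. At day 5, 1 rose and 2 fell against a background of 59.9%, and at day 7, 1 rose and 2 fell against 60.0%. Among the culture days the order of levels was not resolved. None of the 5 passed between days 5 and 3 (0.115% of all genes called), days 7 and 5 (0.0766%) or days 7 and 3 (3.79%). The widest of these differences with no overlap was that of Fdx1 between days 5 and 3 (-0.65, 95% interval -0.99 to -0.31, limma adjusted p = 0.184), which passed without day 5 replicate 2 (0.0469) and with DESeq2 (0.0186). With limma, then, Star was lowest in tissue, Scarb1 and Fdx1 were highest there, and no neighbouring pair of culture days passed the threshold for any of the 5.

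Genes around these steps moved in mixed directions in culture. The lists were chosen with earlier results of these data known, and day 7 against tissue is given. Of 14 genes of sterol uptake, storage and release, 5 rose and 2 fell, where 60.0% of all genes were called, with a list median of 0.28 beside -0.05 over all genes. Vldlr, which takes up triglyceride-rich lipoproteins, rose from 8.39 ± 0.483 to 84.0 ± 21.9 CPM (3.15, limma adjusted p = 1.01e-08), and Abcg1, which exports sterol, rose from 98.8 ± 2.21 to 287 ± 35.6 CPM (1.52, adjusted p = 2.82e-08). Lrp8, a receptor for apolipoprotein E, fell from 230 ± 18.6 to 43.1 ± 6.22 CPM (-2.39, adjusted p = 8.20e-09).

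Of 16 intracellular sterol carriers and related genes, Mfn2 among them, 5 rose and 4 fell at day 7 (list median 0.15). Among 10 outer mitochondrial membrane partners 2 rose and 2 fell, against the same 60.0% of all genes in both lists. The lysosomal membrane protein Scarb2, a relative of Scarb1, rose from 73.0 ± 1.93 to 181 ± 8.49 CPM (1.30, limma adjusted p = 1.83e-08). Npc2, which lifts cholesterol out of the lysosome, rose by 0.53 (adjusted p = 0.0182), a call lost without tissue replicate 1 or 2 or day 7 replicate 1 or 3 (0.0515 to 0.0647). Of the outer membrane partners, the channel Vdac2 fell by -0.75 (6.78e-05), and the adaptor Ywhag and the kinase anchor Akap1 rose by 0.73 (2.16e-05) and 0.62 (0.00223).

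Genes of P450 electron transfer and of iron-sulfur cluster assembly had shares of called genes at or below that of all genes. The 5 other P450 and electron transfer genes tested were Cyp11a1, Cyp27a1, Fdx2, Por and Cyb5a, and of these Fdx1 serves Cyp11a1 and Cyp27a1. At day 7, 3 of the 5 fell and none rose, where 60.0% of all genes were called in either direction. Cyp11a1 went from 15.6 ± 2.77 to 9.83 ± 2.43 CPM (-0.63, limma adjusted p = 0.0191), lost without tissue replicate 3 or day 7 replicate 3 (0.0885 to 0.0946). Cyp27a1, a sterol 27-hydroxylase, fell by -0.47 (adjusted p = 0.0191) and Fdx2, the ferredoxin of iron-sulfur assembly, by -0.45 (adjusted p = 0.0376). Each of these 2 calls was lost without some single tissue or day 7 libraries, at adjusted p 0.0519 to 0.0558 for Cyp27a1 (tissue replicates 1 and 3, day 7 replicates 1 and 3) and 0.052 to 0.159 for Fdx2 (each tissue replicate, day 7 replicates 2 and 3).

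Among 11 genes of iron-sulfur and lipoate assembly, 4 fell and none rose at day 7, against the same 60.0% of all genes, with Isca2, which helps insert clusters, at -0.57 (limma adjusted p = 0.0261) and Hscb, a cochaperone of cluster transfer, at -0.40 (0.0258). Both calls were lost without tissue replicate 1, tissue replicate 3 or day 7 replicate 3, and that of Isca2 also without day 7 replicate 2 (adjusted p 0.0518 to 0.104 over both genes). Of 6 steroid enzymes, 1 rose and 4 fell. Cyp17a1, which makes androgen precursors, had 13.0, 13.0 and 10.8 CPM in tissue and 0, 0.824 and 0 CPM at day 7, and it fell with adjusted p = 7.28e-08.

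Of 25 genes linked to Star regulation, 4 rose and 12 fell at day 7 (list median -0.39), where 60.0% of all genes were called. Fos, Nr4a1 and Nr0b1, a pair of early response genes and a repressor of Nr5a1, fell by -7.17, -5.48 and -3.97 (limma adjusted p at most 1.46e-07). Nr5a1 itself, which drives steroidogenic genes, differed by -0.14 (adjusted p = 0.449). Other cell types moved beside these results. From tissue to day 7 the summed germ cell markers (8 of 8 listed) went from 237 to 258 CPM to a range of 46.8 to 71.1 CPM, and peritubular myoid markers (7 of 7) from 1414 to 1580 CPM to a range of 4095 to 4841 CPM. The germ cell sum at day 7 held Kit at 29.95, 42.8 and 25.5 CPM. Ddx4 went from 38.5, 40.3 and 38.1 CPM to 1.43, 1.39 and 2.59 CPM. Of 8 germ cell markers tested 7 fell and none rose, against 60.0% of all genes called. Sertoli markers (11 of 12) went from 1960 to 2094 CPM to a range of 3066 to 3352 CPM, and mesothelial markers (5 of 6) from 3.51 to 5.32 CPM to a range of 67.7 to 168 CPM. The Sertoli sum held Clu, at 360.5, 355.5 and 359 CPM in tissue and 1475, 1533 and 1544 CPM at day 7. Most of the mesothelial sum at day 7 was Lrrn4 (78.6, 63.4 and 161 CPM). Bnc1 went from 2.7, 3.7 and 2.2 CPM to 0.11, 0.13 and 0.20 CPM. Of 9 Sertoli markers tested 4 rose and 2 fell, and of 3 mesothelial markers 2 rose and 1 fell, against 60.0% of all genes called. Macrophage markers (12 of 12) went from 53.6 to 65.0 CPM to a range of 25.9 to 27.8 CPM, with Cd163 at 0 at day 7. Tyrobp went from 24.6, 19.7 and 27.2 CPM to 0.29, 0.35 and 1.12 CPM. Adgre1 went the other way, from 0.26, 0.18 and 0.49 CPM to 1.21, 2.99 and 1.57 CPM. Of 7 macrophage markers tested 1 rose and 3 fell, against the same 60.0% of all genes. Endothelial markers (7 of 8) went from 103.5 to 118.5 CPM to a range of 112.5 to 123.2 CPM, with Emcn at 0 at day 7. The endothelial sum held opposite moves. Kdr went from 8.38, 10.5 and 8.03 CPM to 52.2, 41.8 and 58.1 CPM. Cdh5 went from 92.5, 73.6 and 76.6 CPM to 59.7, 69.3 and 43.4 CPM. Of 6 endothelial markers tested 2 rose and 3 fell (list median -0.87), against the same 60.0% of all genes. Leydig markers (8 of 9 listed) went from 460 to 476 CPM to a range of 355 to 419 CPM. Nr5a1 made up 217.1, 205.5 and 162.1 CPM of that sum at day 7, and Insl3, whose counting is uncertain, 49.6, 38.6 and 48.5 CPM. Hsd17b3 went from 46.7, 48.4 and 47.6 CPM to 19.85, 17.6 and 15.93 CPM. Of 8 Leydig markers tested 1 rose and 4 fell, against the same 60.0% of all genes. The part of these shifts in the differences above was not tested.

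**Figure D2:**
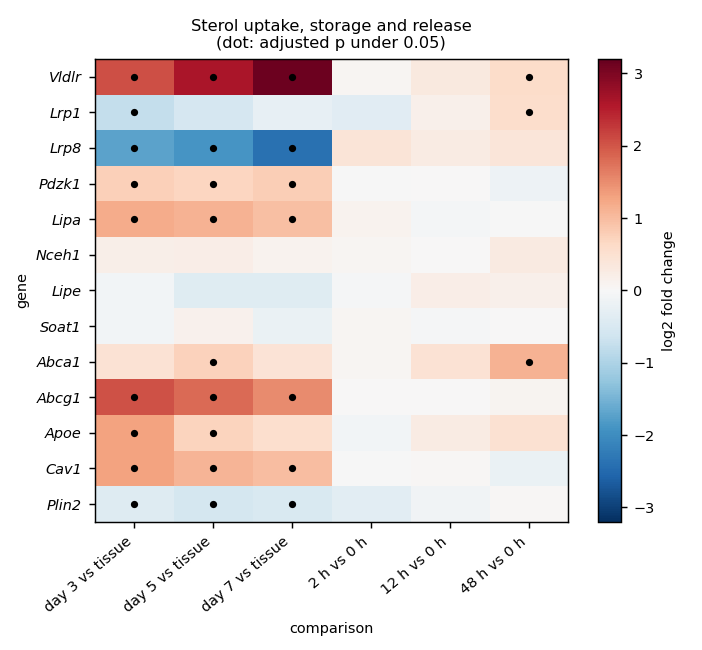
Log2 fold changes (colour, red higher and blue lower in the first-named group) of 13 of the 14 genes of sterol uptake, storage and release in 6 comparisons, with a dot where the adjusted p was under 0.05. Vldlr and Abcg1 are higher and Lrp8 lower in culture than in tissue, and Abca1, Vldlr and Lrp1 carry the 3 dots at 48 h.

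After hormone Star and Fdx1 were highest at 2 h, while Scarb1 was highest at 12 to 48 h. At 0 h Star stood at 35.8, 54.7 and 62.1 CPM in litters 1, 2 and 3, and at 2 h at 65.8, 194 and 94.8 CPM. All 3 litters were higher at 2 h, by ratios of 1.84, 3.54 and 1.53, and the groups did not overlap. Litter 2 had the widest step. The difference in Star was 1.09 ± 0.24 (95% interval 0.56 to 1.62), and it missed the threshold with litter as a block (limma adjusted p = 0.0604; 0.0350 without the 12 h library of litter 3). Litter 2 also had the highest LH receptor level at 0 h, with Lhcgr at 4.99 CPM beside 0.862 and 0.671 CPM in litters 1 and 3; its part in the result was not tested.

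Fdx1 had 16.8, 17.9 and 17.9 CPM at 0 h and 24.4, 39.9 and 33.0 CPM at 2 h. Every 2 h library exceeded every 0 h library, with litter ratios of 1.46, 2.23 and 1.85. Fdx1 rose by 0.83 ± 0.14 (limma adjusted p = 0.0414). The call was fragile: it was lost without the block (0.173), without each litter (0.174 to 0.316), and without any 1 library (0.0651 to 0.172) other than the 12 h library of litter 3 and the 48 h library of litter 1. The log2 difference stayed between 0.68 and 1.01 in all 23 alternatives.

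Of the 5 genes, 1 was called between 2 h and 0 h, against 0.618% of 12450 genes. Fdxr, which feeds Fdx1, had 81.3, 125 and 81.2 CPM at 0 h and 75.1, 99.2 and 50.1 CPM at 2 h. It was lower in 3 of 3 litters (ratios 0.924, 0.794 and 0.616), and the difference did not pass (-0.38, 95% interval -0.59 to -0.16, limma adjusted p = 0.0779). Scarb1 went from 45.0, 47.5 and 46.0 CPM to 46.7, 58.4 and 43.5 CPM (0.09, -0.27 to 0.45, adjusted p = 0.828). Tspo went from 24.8, 23.7 and 19.8 CPM to 23.2, 21.7 and 18.3 CPM (-0.11, -0.31 to 0.09, adjusted p = 0.575). The groups of the last 3 genes overlapped.

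None of the genes in the pathway lists other than Fdx1 was called at 2 h. Chosen after its values were seen, the early response gene Nr4a1, an activator of steroidogenic genes, was at 1.12 ± 0.23 (limma adjusted p = 0.0535), without overlap between the groups. It passed without the 2 h library of litter 2 or the 12 h library of litter 3 (0.0335 to 0.0445).

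**Figure D3:**
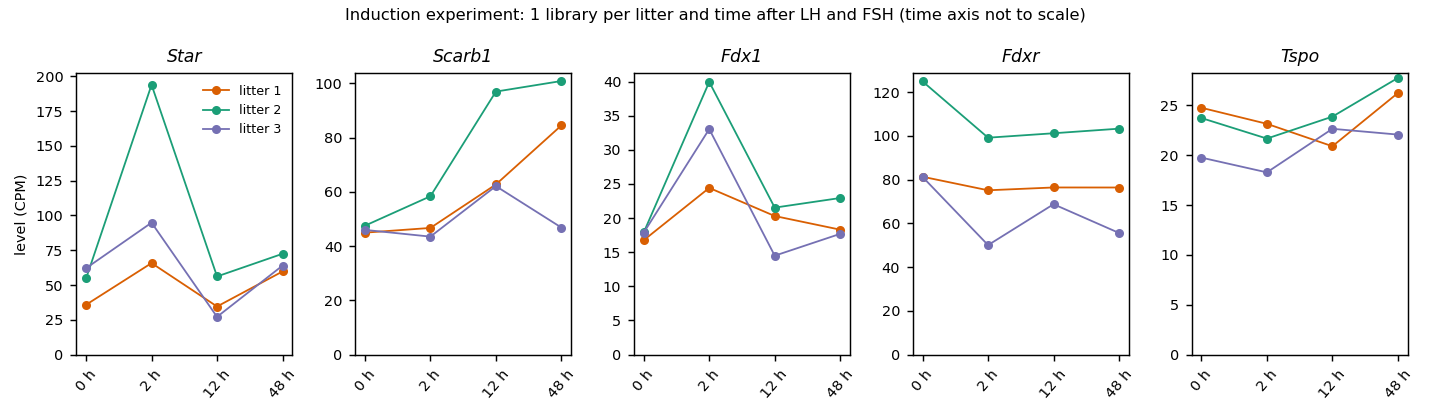
Levels in CPM (vertical axis, from 0, a separate scale for each gene) at 0, 2, 12 and 48 h after hormone, with 1 line for each of 3 litters and times evenly spaced, not to scale. Star and Fdx1 peak at 2 h in every litter, Scarb1 is higher at 12 h than at 0 h in every litter, and its litter 3 line comes back to 46.9 CPM at 48 h.

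By 12 h Star had come down to 34.6, 56.2 and 27.1 CPM and Fdx1 to 20.3, 21.5 and 14.5 CPM. All 12 h libraries lay below all 2 h libraries for both genes. From 2 to 12 h Star fell by -1.48 ± 0.24 (limma adjusted p = 0.0256) and Fdx1 by -0.75 ± 0.14 (adjusted p = 0.0310). Of the 5 genes 2 were called, against 2.96% of all genes. Without the block the adjusted p was 0.133 for Star and 0.135 for Fdx1, fits of only the 2 groups lost both calls (0.0665 and 0.106), the unfiltered fit lost that of Fdx1 (0.0568), and both calls were lost without each litter (0.0993 to 0.113 and 0.110 to 0.168). The Star call was also lost without the 2 h library of litter 1 or 3 or the 12 h library of litter 2 or 3 (0.051 to 0.102). That of Fdx1 was lost without any 2 h library, the 12 h library of litter 2 or 3, or the 48 h library of litter 3 (0.051 to 0.111).

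Against 0 h, no gene at all was called at 12 h with limma (0% of 12450), although 1000 genes had an unadjusted p under 0.05. On reads recovered from the CPM values edgeR called 0 and DESeq2 21. Scarb1 had 62.8, 97.0 and 62.1 CPM at 12 h, each above every 0 h library, with litter ratios of 1.40, 2.04 and 1.35. Its difference was 0.64 ± 0.17 (95% interval 0.27 to 1.00, limma adjusted p = 0.568; 0.0279 with DESeq2). Star differed by -0.39 (-0.92 to 0.14), with litters 1 and 2 near their 0 h level (ratios 0.965 and 1.03) and litter 3 at 0.437 of it. Fdx1 (0.08, -0.24 to 0.39), Tspo (-0.01, -0.21 to 0.19; 20.9, 23.9 and 22.7 CPM) and Fdxr (-0.21, -0.42 to 0.01; 76.4, 101 and 68.8 CPM) overlapped 0 h.

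At 48 h Scarb1 had 84.5, 101 and 46.9 CPM. Litters 1 and 2 stood above all 0 h libraries, with ratios of 1.88 and 2.12, while litter 3 stood at 1.02 of its own start and within the 0 h range. Scarb1 rose by 0.66 ± 0.17 against 0 h (limma adjusted p = 0.0487), the only call among the 5 genes, against 4.35% of all genes. The call was lost without the block (0.289), without litter 1 or 2 (0.259 to 0.268), and without any 1 library (0.0542 to 0.172) other than the 12 h and 48 h libraries of litter 3. Without litter 3 the difference was 0.98 with adjusted p = 0.0155.

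The other 4 genes overlapped their 0 h ranges at 48 h. Star had 59.7, 72.4 and 64.0 CPM (0.39, 95% interval -0.14 to 0.92, limma adjusted p = 0.352) and Fdx1 had 18.3, 22.9 and 17.7 CPM (0.15, -0.17 to 0.46, adjusted p = 0.559). Tspo had 26.2, 27.8 and 22.1 CPM (0.15, -0.05 to 0.35, adjusted p = 0.340). Fdxr had 76.4, 103 and 55.6 CPM, lower in 3 of 3 litters (-0.30, -0.51 to -0.08, adjusted p = 0.0992).

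Between 48 h and 12 h none of the 5 genes passed (0.715% of all genes called). Star was higher at 48 h in 3 of 3 litters without overlap (0.78, 95% interval 0.25 to 1.31, limma adjusted p = 0.183). Between 48 h and 2 h, where 22.1% of all genes were called, Fdx1 fell by -0.68 ± 0.14 (adjusted p = 0.00849; 0.0653 without litter 2) and Scarb1 rose by 0.58 ± 0.17 (adjusted p = 0.0307), with overlapping groups. The Scarb1 call was lost without the block (0.167), with no filter (0.0609) or only the 2 groups (0.0528), litter 1 or 2 (0.141 to 0.228), any 2 h library or the 48 h library of litter 1 or 2 (0.0605 to 0.134). Star, at -0.70 (-1.23 to -0.17, adjusted p = 0.0582), passed without the 0 h library of litter 3, the 2 h library of litter 1 or the 12 h library of litter 3 (0.0332 to 0.0436). Tspo, at 0.26 (0.06 to 0.46, adjusted p = 0.0640), passed without the 12 h library of litter 1 or 3 (0.0338 to 0.0448). The 3 comparisons against 0 h share the untreated libraries, and those between hormone times share libraries with them.

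The order of mean levels was then 12 h, 0 h, 48 h and 2 h for Star, and 0 h, 2 h, 12 h and 48 h for Scarb1. Star means ± SD in that order were 39.3 ± 15.1, 50.9 ± 13.5, 65.4 ± 6.47 and 118 ± 67.1 CPM, and no neighbouring pair passed. Scarb1 means were 46.2 ± 1.29, 49.6 ± 7.83, 74.0 ± 20.0 and 77.4 ± 27.7 CPM, and no neighbouring pair passed with limma either. Between 12 h and 2 h Scarb1 was higher without overlap (0.55 ± 0.17, limma adjusted p = 0.0897), and that difference passed with DESeq2 (0.00947) and without the 48 h library of litter 3 (0.0466). Fdx1 was at 17.5 ± 0.647 (0 h), 18.8 ± 3.76 (12 h), 19.6 ± 2.87 (48 h) and 32.5 ± 7.78 CPM (2 h). Of its neighbours only 48 h and 2 h differed. Mean levels of Tspo were lowest at 2 h (21.03 CPM) and highest at 48 h (25.4 CPM) and those of Fdxr were lowest at 2 h (74.8 CPM) and highest at 0 h (95.8 CPM), and no neighbouring pair of either passed.

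**Figure D4:**
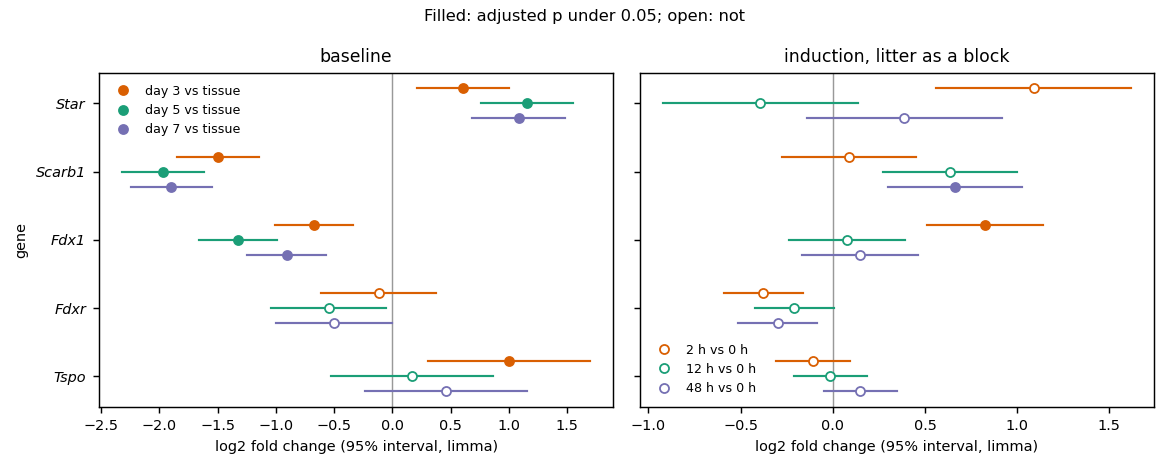
Log2 fold changes of the 5 genes with 95% intervals from limma, against tissue (left) and against 0 h with litter as a block (right), filled where the adjusted p was under 0.05. Filled points on the right are Fdx1 at 2 h (0.83) and Scarb1 at 48 h (0.66), and Star at 2 h (1.09) is open with an interval above 0.

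Among the enzymes and lipid genes the later time points held the calls. Cyp11a1, which receives the cholesterol and the electrons, had 5.32, 6.83 and 9.55 CPM at 0 h and 25.7, 33.6 and 11.8 CPM at 48 h. Its litter ratios of 4.84, 4.93 and 1.23 had the same order as those of Scarb1, with litter 3 nearest its start. Cyp11a1 rose by 1.50 ± 0.32 (limma adjusted p = 0.0302), lost without the block (0.165), litter 1 or 2 (0.151 to 0.211), or any of the 0 h and 48 h libraries of litters 1 and 2 (0.070 to 0.113). Cyp17a1 had 0.335, 2.08 and 0.276 CPM at 0 h and 31.0, 36.3 and 8.82 CPM at 48 h, and it rose by 3.71 ± 0.40 (adjusted p = 0.0021; 0.0646 without the block). Of 6 steroid enzymes tested these 2 rose and none fell. Nr5a1 differed by 0.01 (adjusted p = 0.943).

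Of 14 genes of sterol uptake, storage and release, 3 rose and none fell at 48 h, where 4.35% of all genes were called, with a list median of 0.13 beside -0.03 over all genes. Abca1, which exports cholesterol, had 80.7, 70.4 and 95.9 CPM at 0 h and 215, 126 and 204 CPM at 48 h (1.11, limma adjusted p = 0.00246; 0.0967 without the block). Vldlr rose by 0.58 (adjusted p = 0.0188; 0.382 without the block) and Lrp1, an endocytic receptor, by 0.55 (0.0349; 0.384 without the block). Vldlr lost its call without litter 1 or 2, the 0 h library of litter 2 or the 48 h library of litter 2 or 3 (0.0518 to 0.150). Lrp1 lost it without each litter and without any 0 h library, the 2 h or 12 h library of litter 1 or the 48 h library of litter 1 or 3 (0.0502 to 0.238). Among the 16 sterol carriers and related genes 1 rose and none fell. None of 10 outer membrane partners and none of 11 iron-sulfur and lipoate genes passed.

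From 2 to 12 h the genes falling beside Star and Fdx1 included Nr4a1 (-1.74, limma adjusted p = 0.0205) and Fos (-1.36, adjusted p = 0.0418). In the same step Cyp17a1 rose by 1.94 (adjusted p = 0.0386). Each of these 3 calls was lost without the block (0.0964 to 0.292). Nr4a1 also lost its call without litter 1 or 3 (0.0768 to 0.115), the 2 h library of litter 1 or the 12 h library of litter 2 or 3 (0.0606 to 0.0752). Fos and Cyp17a1 lost theirs without each litter (0.0975 to 0.175) and without 10 and 8 of the 12 libraries in turn (at most 0.147), among them the 2 h libraries of litters 1 and 3 and all 12 h libraries. From 2 to 48 h Abca1 rose by 1.04 (adjusted p = 0.0011).

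**Figure D5:**
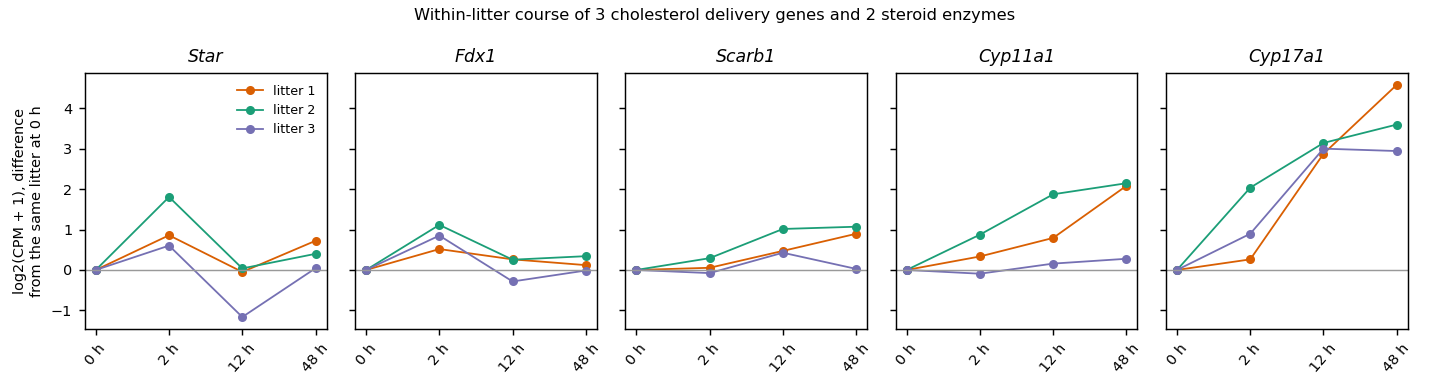
Differences in log2(CPM + 1) from the same litter at 0 h (vertical axis) at 0, 2, 12 and 48 h, times evenly spaced, with 1 line per litter. Star and Fdx1 are above 0 at 2 h in all litters and below their 2 h value at 12 h, while Cyp17a1 climbs to 2.94 to 4.58 at 48 h and Scarb1 and Cyp11a1 stay near 0 in litter 3 (0.03 and 0.28 at 48 h).

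Marker sums also differed within this course, though few single markers were called. At 48 h against 0 h, 1 of 11 macrophage, 2 of 7 Leydig and 1 of 8 Sertoli markers tested rose. Of 7 peritubular myoid markers 1 fell. No germ cell, endothelial or mesothelial marker was called, where 4.35% of all genes were. Summed Leydig markers, which include Cyp11a1, Cyp17a1 and Nr5a1, were 287, 371 and 303 CPM in litters 1, 2 and 3 at 0 h and 417, 454 and 319 CPM at 48 h, with Insl3, whose counting is uncertain, at 0 throughout. Summed macrophage markers (12 of 12 listed) were 83.8, 28.4 and 38.7 CPM at 0 h and 161, 29.5 and 217 CPM at 48 h, with Cd163 at 0 in all 48 h libraries. Litter 3, where Scarb1 stood at its starting level at 48 h, had the highest macrophage sum of the 12 libraries, and litter 2, with the highest Scarb1, had the lowest at that time. In litter 1 both were higher at 48 h, with a macrophage sum of 161 CPM and Scarb1 at 1.88 of its 0 h level. At 12 h litter 3 had a macrophage sum of 100.9 CPM and a Scarb1 ratio of 1.35. The part of these levels in the Scarb1 result was not tested. At 2 h the macrophage sums were 70.6, 22.2 and 45.3 CPM and the Leydig sums 257, 365 and 253 CPM, while Star and Fdx1 were above their own 0 h level in all 3 litters.

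Over the 12 induction libraries, which share litters and times, Star ran most closely with Hif1a, the oxygen-sensing transcription factor (Pearson r = 0.917), Tmem30a, a subunit of lipid flippases (0.911), and Atp6v1b2, a proton pump subunit (0.889). Its r with Fdx1 was 0.869. Genes like Fdx1 included Zzz3 (0.924) and Bzw1 (0.924). Scarb1 was most like Cyp11a1 (0.924), the phosphatase Ptpn9 (0.916) and the adhesion receptor Adgrb1 (0.908), and its r with Star was -0.03. Fdxr was most like Ctc1 of the telomere-capping CST complex (0.967). Likeness was measured on log2 values over 10428 genes with a mean of at least 5 CPM, as a description. In the baseline the tissue and culture libraries of Star, Scarb1 and Fdx1 did not overlap, and no correlation is given for that experiment.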

How the data were processed

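Poly-T selected RNA was copied with random hexamers into libraries that do not mark strand and sequenced on a NovaSeq instrument, per the labels' protocols. Alignment used STAR and build mRatBN7.2, per the submitters' processing notes, while a counter or gene annotation is not given in the sources used here. The authors deposited CPM, which relate a gene's reads to all reads of its library. All positive values were whole multiples of 1 read to within 0.01 read, so whole reads were recovered (100% of values), which edgeR 4.0.16 and DESeq2 1.42.0 tested as alternatives.

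Each experiment was fitted by itself with limma 3.58.1 in R 4.3.3 (trend) on log2(CPM + 1), keeping genes with at least 1 CPM in at least 3 of its 12 libraries (13055 and 12450 genes), with Benjamini-Hochberg adjustment over all genes per comparison, 2-sided. Induction fits had litter as a block, since the labels give the litter. Deviations of its 18 same-litter pairs correlated at a median of 0.482 (-0.0119 to 0.747). Baseline fits had no block. The procedure was tested on simulated data.

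The 5 genes and all lists were chosen with earlier results of these data known. Pathway genes named are up to 3 called genes of a list with the largest changes and at least 5 CPM in the higher group, plus Cyp11a1, Cyp17a1, Nr5a1, Lhcgr and the genes said to be chosen otherwise. Further genes are named to show what a list or marker sum held. Some were left out for length. Hsd3b1, Cyp11b1 and Cyp11b2 were not analysed here. Results for a few genes are not reported here. Alternatives were a pseudocount of 0.1 or 5, no filter, TMM rescaling, fits of only the 2 groups compared, the block added or removed, edgeR, DESeq2, and leaving out each library or litter.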

Additional observations from a re-analysis of the deposited data

How the results depend on the processing

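The precision rests on 3 libraries per group, and the baseline libraries come from 1 litter. Of 60 results for the 5 genes (12 comparisons), 42 kept their direction where called and their side of the threshold under every alternative run, 20 for each baseline and 23 for each induction result, and none of the called ones reversed. TMM rescaling shifted the median of all genes by at most 0.06 on the log2 scale. Causes of the changes below were not tested.

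Among the 5 genes, Fdxr against tissue passed at day 5 with TMM rescaling (-0.54), with only the 2 groups (-0.55) and with DESeq2 (-0.52), and at day 7 with only the 2 groups (-0.50). Star at 2 h passed with only the 2 groups (1.09) and DESeq2 (1.12), and DESeq2 also called Fdxr at 2 h (-0.37) and Scarb1 at 12 h (0.68), Scarb1 between 12 and 2 h (0.59) and Fdx1 between days 5 and 3. Tspo between 48 and 2 h passed with TMM and with edgeR (adjusted p 0.0493 to 0.0499). Fdx1 at 2 h was lost with no filter (0.83, adjusted p = 0.0734) and with no replicate block (0.83, limma adjusted p = 0.173). Scarb1 at 48 h was lost with a pseudocount of 5 (0.63, adjusted p = 0.0512), no filter (0.66, 0.0924), only the 2 groups (0.66, 0.112) and no replicate block (0.66, 0.289). The block changed no call of the 5 genes in the baseline.

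Leaving out 1 library or litter gave ranges against tissue of 0.41 to 0.83 for Star and 0.83 to 1.15 for Tspo at day 3, of -0.73 to -0.32 for Fdxr and -0.17 to 0.60 for Tspo at day 5, and of -0.71 to -0.26 for Fdxr at day 7. Against 0 h they were 0.73 to 1.36 for Star and 0.68 to 1.01 for Fdx1 at 2 h, and 0.46 to 0.98 for Scarb1 at 48 h.

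Counts of called genes moved more. In the baseline, between days 5 and 3 (15 genes), only the 2 groups gave 4, DESeq2 131 and leaving out a library 1 to 59. Between days 7 and 5 (10), no filter gave 0, only the 2 groups 1, the replicate block 0, DESeq2 246 and leaving out a library 0 to 48. Between days 7 and 3 (495), only the 2 groups gave 286, DESeq2 802 and leaving out a library 181 to 827. Baseline replicates share only a number: 18 same-numbered pairs had a median correlation of -0.000715, and 5 were over 0.1. The names of the culture libraries carry other numbers, which at day 3 do not match the replicate numbers, and pairing by them was not tried.

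In the induction experiment at 2 h (77), no filter gave 8, TMM 43, only the 2 groups 303, no replicate block 0, DESeq2 512 and leaving out a library or litter 0 to 221. At 12 h (0), a pseudocount of 0.1 gave 2, only the 2 groups 1, DESeq2 21 and leave-outs 0 to 10. At 48 h (541), no filter gave 268, only the 2 groups 281, no replicate block 49, DESeq2 937 and leave-outs 68 to 725. From 2 to 12 h (368), no filter gave 96, only the 2 groups 6, no replicate block 0, DESeq2 726 and leave-outs 0 to 550. From 12 to 48 h (89), no filter gave 18, only the 2 groups 12, no replicate block 0, edgeR 58, DESeq2 283 and leave-outs 0 to 74. From 2 to 48 h (2756), only the 2 groups gave 1342, no replicate block 991 and leave-outs 405 to 3053.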
